A study of Mus musculus with 8 samples.

Results

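The genes described here are 10 genes of mitosis, found by their symbols in the table of normalized counts: *Mki67*, *Top2a*, *Cdk1*, *Plk1*, *Aurkb*, *Kif11*, *Tpx2*, *Cenpe*, *Cenpf* and *Bub1b*. All 10 are among the 10783 genes of the table, and all 10 passed the filter on low values that left 10627 genes for testing. They were measured by RNA-seq in B-1a cells, the CD5+ B cells that arise mainly before and around birth and then keep their numbers by dividing, sorted from the spleens of mice 2 to 3 months old on a Balb/c background. The control IgMhi group has 3 libraries from Ctla4+/+ mice, the CKO IgMhi group has 2 libraries from Ctla4fl/fl mice, and the CKO IgMneg group has 3 libraries from CKO mice. CKO stands for conditional knockout: Cre made in B cells removes the floxed part of *Ctla4*, an inhibitory receptor gene, in those cells. Every mouse, control or CKO, carries 1 allele of this Cre, so no library shows cells without it. Cells of the IgMhi libraries were IgMhi IgDlo/neg CD21lo/neg CD43+ CD5+, and those of the IgMneg libraries were IgMneg IgDneg CD43+ CD5+, with surface IgM no longer detected. Control and CKO mice came from different crosses, so genotype and breeding cannot be told apart.

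In mitosis the copied chromosomes condense, attach through their kinetochores to the microtubules of the spindle, and are pulled apart once every kinetochore is attached. The RNAs of these genes accumulate in G2 and M and fall after division, and their shared control works through the CHR element and CCAAT boxes of the promoters, bound by the DREAM and MMB complexes and by NF-Y. In a population of mixed cells their level depends both on how many cells cycle and on how much RNA each cycling cell holds, and bulk RNA-seq cannot tell these apart. B-1a cells divide in the adult at a low rate, which is how the population is kept up.

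Promoter windows from RefSeq, running from 250 bases before to 50 bases after the start of transcription on GRCm38.p6, were at hand for 8 of the 10 genes; *Aurkb* and *Tpx2* were not matched. The CHR letters TTTGAA were found, on either strand, in 7 of these 8 windows, with *Cenpe* the exception, against 17.9% of all 32851 windows. The letters CCAAT were found on either strand in all 8, against 37.4% of all windows, and both motifs stood together in 7 of 8 against 6.95%. No 2 matches shared letters, and a match is a description of the sequence only. Below are the windows of the 2 genes whose level differed in a test (*Mki67* and *Cenpf*) and of 2 genes that did not pass it (*Top2a* and *Cdk1*), 5′ to 3′ on the coding strand, with TTTGAA (or its reverse, TTCAAA) and CCAAT (or its reverse, ATTGG) in capitals. All 4 genes lie on the minus strand, at chr7:135716330-135716629, chr1:189688037-189688336, chr11:99024140-99024439 and chr10:69352863-69353162 in that order.
Mki67 promoter: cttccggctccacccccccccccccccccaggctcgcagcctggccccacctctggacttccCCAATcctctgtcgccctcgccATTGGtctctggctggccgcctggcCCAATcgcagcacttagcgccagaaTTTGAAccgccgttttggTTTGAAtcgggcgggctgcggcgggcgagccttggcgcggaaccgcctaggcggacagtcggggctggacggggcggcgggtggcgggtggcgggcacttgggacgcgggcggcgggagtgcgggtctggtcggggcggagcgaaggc
Cenpf promoter: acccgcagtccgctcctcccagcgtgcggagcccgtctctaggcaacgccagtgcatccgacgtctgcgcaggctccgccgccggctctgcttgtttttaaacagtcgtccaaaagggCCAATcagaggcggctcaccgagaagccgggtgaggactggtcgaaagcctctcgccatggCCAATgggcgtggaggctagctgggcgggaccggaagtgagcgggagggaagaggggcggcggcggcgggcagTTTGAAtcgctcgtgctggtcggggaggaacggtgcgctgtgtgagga
Top2a promoter: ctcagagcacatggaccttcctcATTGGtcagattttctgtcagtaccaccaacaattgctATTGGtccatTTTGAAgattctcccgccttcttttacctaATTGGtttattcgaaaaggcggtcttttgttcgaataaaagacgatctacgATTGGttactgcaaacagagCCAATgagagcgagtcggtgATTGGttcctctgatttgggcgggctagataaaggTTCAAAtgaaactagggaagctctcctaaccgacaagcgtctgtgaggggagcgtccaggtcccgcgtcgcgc
Cdk1 promoter: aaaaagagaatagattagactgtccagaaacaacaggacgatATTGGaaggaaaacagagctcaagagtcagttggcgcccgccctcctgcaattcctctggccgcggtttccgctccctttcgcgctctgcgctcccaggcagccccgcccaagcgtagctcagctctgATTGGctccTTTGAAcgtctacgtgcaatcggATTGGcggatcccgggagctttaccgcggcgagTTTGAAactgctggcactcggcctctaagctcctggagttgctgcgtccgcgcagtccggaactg

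The *Mki67* window holds its 2 CHR matches close together, at bases 116 and 98 before the start, downstream of 3 CCAAT matches. In *Cenpf* the single CHR match begins at base 3 after the start, with CCAAT matches at bases 132 and 71 before it. *Top2a* had the most CCAAT matches of the 8 genes, 6 of them, and *Cdk1* had 3, with a CHR match at base 15 before the start. So genes whose level differed between groups and genes whose level did not pass the test both carry the 2 motifs.

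Before the results, a few facts of the libraries limit what follows. Reads in genes ranged from 1404660 to 10289686, and control libraries 2 and 1, with 1404660 and 2514224 reads, were the shallowest. A single read was worth 4.79 normalized counts in control library 2 and 0.441 in control library 3, so the levels of the low genes are coarse in the first. Control library 1 held reads of *Xist* (2001 normalized counts) together with those of the Y-linked gene *Ddx3y* (258), whereas each other library was high for 1 of the 2 only. Control libraries 2 and 3 were *Ddx3y*-high (770.8 and 685.5 normalized counts), and IgMneg library 1 was *Xist*-high (2604). In the CKO groups, replicate number 2 stood for an *Xist*-high pair of IgMhi and IgMneg libraries and number 3 for a *Ddx3y*-high pair. The mix of *Xist*-high and *Ddx3y*-high libraries thus differed between the 3 groups. Each number is read here as 1 mouse, which the labels do not spell out. Of the defining markers of the sorted cells, *Cd79a* (1544 to 3127 normalized counts), *Cd5* (129 to 246) and *Spn*, which encodes CD43 (958 to 2570), were present in all 8 libraries. Of 11 B-1a markers, 3 were called in CKO IgMneg against CKO IgMhi cells: *Cd79a* (-0.83, adjusted p = 0.00663) and *Bhlhe41* (-0.73, adjusted p = 0.0196) were lower and *Spn* (0.85, adjusted p = 0.0268) was higher. *Ctla4* itself had 42.2, 43.1 and 76.8 normalized counts in control IgMhi, 36.2 and 28.5 in CKO IgMhi, and 48.5, 73.9 and 33.0 in CKO IgMneg libraries. These are reads over the whole gene, so they do not check the deletion of the floxed part.

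The 10 genes span a wide range of levels. Per kilobase of exon, *Top2a* was first in every group, with 76.8 ± 16.7 normalized counts per kilobase in control IgMhi (SD, n = 3), 97.8 ± 23.5 in CKO IgMhi (n = 2) and 88.3 ± 22.8 in CKO IgMneg cells (n = 3). *Cenpf* was last in every group, with 6.44 ± 3.22, 11.5 ± 3.63 and 3.65 ± 1.42 normalized counts per kilobase. In control IgMhi cells the order ran *Top2a*, *Mki67*, *Kif11*, *Bub1b*, *Aurkb*, *Cdk1*, *Tpx2*, *Plk1*, *Cenpe*, *Cenpf*, and each neighbour's libraries overlapped those of the next except between *Kif11* (lowest 32.8) and *Bub1b* (highest 32.5). In CKO IgMhi cells, with 2 libraries, neighbours did not overlap below *Mki67*, *Kif11*, *Bub1b* and *Aurkb*, and the lowest library of *Mki67* had 75.7 normalized counts per kilobase against a highest of 52.8 for *Kif11*. In CKO IgMneg cells *Mki67* stood below *Kif11*, at 34.1 ± 9.98 normalized counts per kilobase, within the range of *Kif11* and *Bub1b*, and *Top2a* stood alone above it. The order of the genes was otherwise nearly the same in the 3 groups.

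**Figure D1:**
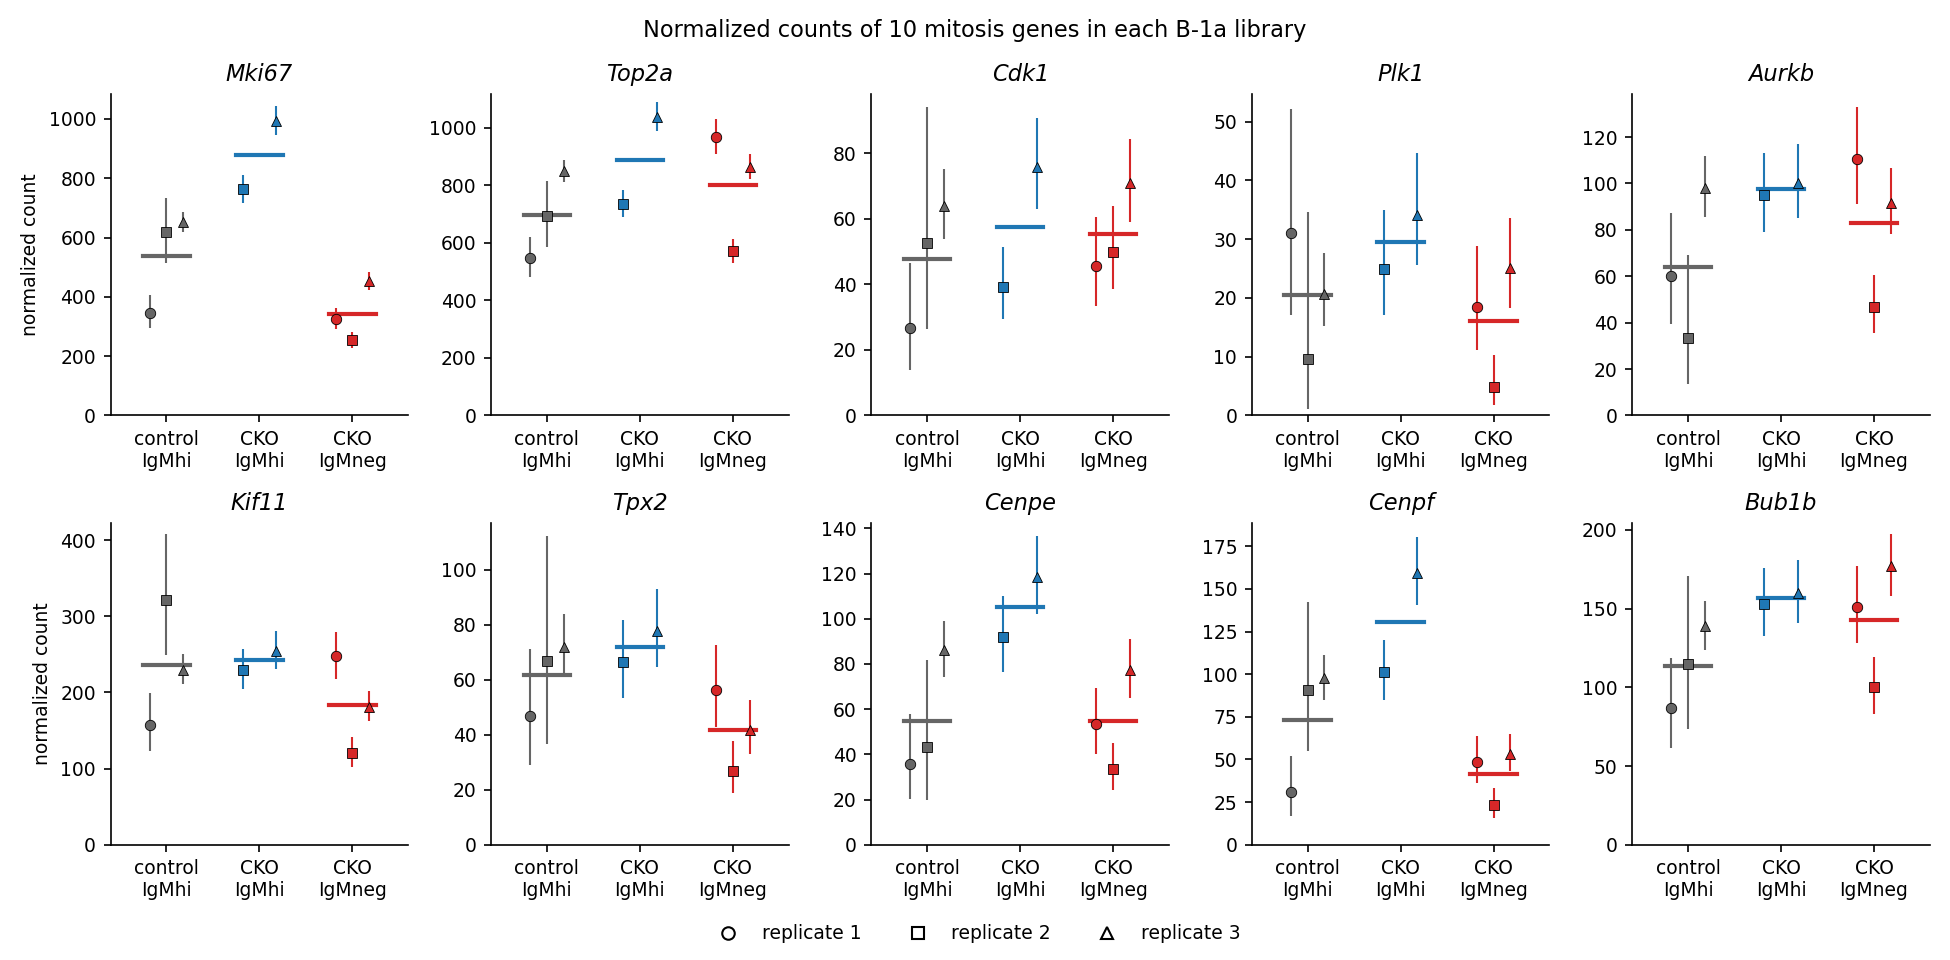
Normalized count of each of the 10 genes (vertical axis, linear from 0) in the 8 libraries, by group; symbols give the replicate number, bars through the symbols the 95% Poisson interval of the reads (counting error only) and horizontal lines the group mean. The 3 CKO IgMneg libraries of *Mki67* (253 to 452) all lie under the 2 CKO IgMhi libraries (763 and 994), while for *Top2a* the groups overlap.

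*Mki67* encodes Ki-67, a protein that coats mitotic chromosomes and is the usual marker of cycling cells. It had 347, 618 and 653 normalized counts in the control IgMhi libraries 1, 2 and 3, 763 and 994 in CKO IgMhi libraries 2 and 3, and 326, 253 and 452 in CKO IgMneg libraries 1, 2 and 3. Both CKO IgMhi libraries lay above all the others, and the IgMneg libraries overlapped only control library 1. *Mki67* was lower in CKO IgMneg than in CKO IgMhi cells by a log2 fold change of -1.38 (SE 0.26, 95% interval -1.93 to -0.83, limma adjusted p = 0.00522).

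Against the control, *Mki67* differed by 0.75 on the log2 scale in CKO IgMhi cells (SE 0.26, adjusted p = 0.289) and by -0.63 in CKO IgMneg cells (SE 0.23, adjusted p = 0.218). Neither passed the threshold of 0.05.

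*Top2a* encodes topoisomerase IIα, which untangles the sister chromatids. It had 547, 694 and 849.6 normalized counts in control IgMhi, 736 and 1037.5 in CKO IgMhi, and 969, 570.1 and 864 in CKO IgMneg libraries. All 3 groups overlapped. The log2 fold change of CKO IgMneg against CKO IgMhi cells was -0.16 with a 95% interval of -0.64 to 0.32 (adjusted p = 0.714), an interval that does not reach the value of *Mki67*. The ratio of *Mki67* to *Top2a* normalized counts, chosen after the values were seen, was 0.634, 0.89 and 0.768 in control IgMhi, 1.04 and 0.959 in CKO IgMhi, and 0.336, 0.444 and 0.523 in CKO IgMneg libraries. All 3 IgMneg libraries were below the 5 IgMhi libraries in this ratio, which is a description with no test.

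The kinases came next. *Cdk1*, whose protein with cyclin B starts mitosis, had 26.7, 52.7 and 64.0 normalized counts in control IgMhi, 39.2 and 76.0 in CKO IgMhi, and 45.6, 50.03 and 70.97 in CKO IgMneg libraries. The groups overlapped throughout, and the log2 difference between CKO IgMneg and CKO IgMhi cells was -0.0036 (95% interval -0.86 to 0.85), on 47 to 127 reads in each of those 5 libraries.

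*Plk1*, the polo-like kinase of centrosome maturation and mitotic entry, was the lowest of the 10 in raw level, with 31.1, 9.58 and 20.7 normalized counts in control IgMhi, 24.9 and 34.2 in CKO IgMhi, and 18.4, 4.76 and 25.1 in CKO IgMneg libraries. Control library 2 held 2 reads of it and IgMneg library 2 held 6. Its log2 difference of -1.08 between CKO IgMneg and CKO IgMhi cells had a 95% interval of -2.49 to 0.33 (adjusted p = 0.344), which holds both 0 and the value of *Mki67*. Its spread between IgMneg libraries, a coefficient of variation of 64.5%, was larger than the 21.4% of counting error.

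*Aurkb*, the kinase of the chromosomal passenger complex that corrects wrong attachments, had 60.0, 33.5 and 97.9 normalized counts in control IgMhi, 95.1 and 100.02 in CKO IgMhi, and 111, 46.8 and 91.6 in CKO IgMneg libraries. IgMneg library 1 was the highest of all 8 and IgMneg library 2 the second lowest, so the group spanned nearly the whole range. The log2 difference between CKO IgMneg and CKO IgMhi cells was -0.32 (SE 0.41, adjusted p = 0.686).

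Of the 2 spindle genes, *Kif11* encodes the Eg5 motor that pushes the spindle poles apart. It had 158, 321 and 229.8 normalized counts in control IgMhi, 229 and 254 in CKO IgMhi, and 247, 121 and 181 in CKO IgMneg libraries, and the groups overlapped. *Tpx2*, the activator of Aurora A on spindle microtubules, had 46.7, 67.03 and 71.9 normalized counts in control IgMhi, 66.4 and 77.9 in CKO IgMhi, and 56.3, 27.0 and 41.9 in CKO IgMneg libraries. The 3 IgMneg libraries of *Tpx2* all lay below the 2 CKO IgMhi libraries, but the log2 fold change of -0.83 (SE 0.35) did not pass (adjusted p = 0.156). *Kif11* gave -0.46 (SE 0.29, adjusted p = 0.355).

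The kinetochore genes were split. *Cenpf*, whose large protein sits on the outer kinetochore and the nuclear envelope in G2 and mitosis, had 31.1, 91.0 and 97.5 normalized counts in control IgMhi, 101 and 159.5 in CKO IgMhi, and 48.5, 23.0 and 53.1 in CKO IgMneg libraries. The CKO IgMhi libraries were the highest of the 8, and no IgMneg library reached them. *Cenpf* was lower in CKO IgMneg than in CKO IgMhi cells by a log2 fold change of -1.68 (SE 0.46, 95% interval -2.64 to -0.71, adjusted p = 0.0339), resting on 29 to 95 reads in each IgMneg library and 134 and 252 in the CKO IgMhi libraries.

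*Cenpe*, the kinesin that carries chromosomes to the spindle equator, had 35.6, 43.1 and 86.0 normalized counts in control IgMhi, 92.1 and 118 in CKO IgMhi, and 53.3, 33.4 and 77.1 in CKO IgMneg libraries. The CKO IgMhi libraries again lay above the other 6. Its log2 difference was 1.02 (SE 0.40, adjusted p = 0.374) in CKO IgMhi against control cells and -1.002 (SE 0.40, adjusted p = 0.131) in CKO IgMneg against CKO IgMhi cells, and neither passed.

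*Bub1b*, which encodes the checkpoint kinase BubR1, had 86.7, 115 and 139 normalized counts in control IgMhi, 153 and 160.15 in CKO IgMhi, and 151, 100.1 and 177 in CKO IgMneg libraries. The CKO IgMhi libraries were above the controls but within the range of the IgMneg libraries. The log2 difference between CKO IgMneg and CKO IgMhi cells was -0.17 with a 95% interval of -0.73 to 0.39 (adjusted p = 0.743).

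**Figure D2:**
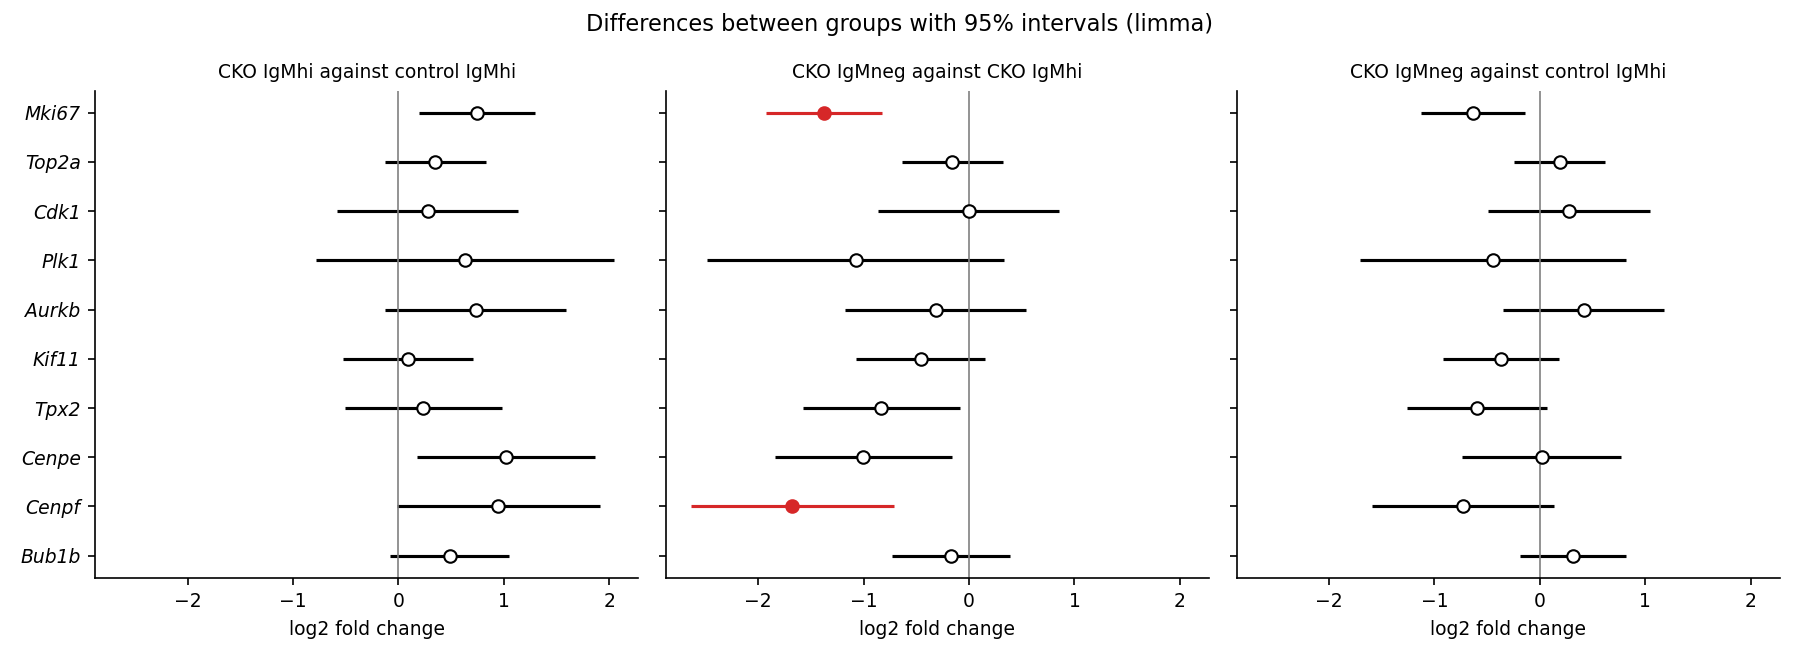
Log2 fold change (horizontal axis) of each of the 10 genes in the 3 comparisons, fitted with limma on log2(normalized count + 1), with 95% intervals; filled red symbols have an adjusted p under 0.05. *Mki67* (-1.38) and *Cenpf* (-1.68) in CKO IgMneg against CKO IgMhi cells are the 2 filled symbols.

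The first comparison sets the IgMhi B-1a cells of CKO mice against those of control mice, which differ in breeding as well as in *Ctla4* genotype. None of the 10 genes passed in CKO IgMhi against control IgMhi cells, where 0.179% of all genes tested were called. The count was 0 also with edgeR, and 0 with DESeq2, which gave an adjusted p for 5 of the 10 only. Before adjustment, 2 of the 10 had a limma p under 0.05, *Mki67* and *Cenpe*, both higher in CKO cells. By that looser measure 745 of all 10627 genes rose and 277 fell. All 10 log2 differences were positive, with a median of 0.56 against 0.0038 over all genes. The libraries of the 2 groups did not overlap for 4 genes, *Mki67*, *Cenpe*, *Cenpf* and *Bub1b*, all higher in CKO cells, where 16.2% of all genes did the same. With control libraries 1 and 2 left out, an alternative chosen after seeing the data that leaves 1 control library, 8 of the 10 differences were still positive, *Cdk1* (-0.22) and *Aurkb* (-0.0060) turned and *Mki67* was at 0.42. *Cdk1* also turned without CKO IgMhi library 3 (-0.19) or control library 1 (-0.085), and *Kif11* (-0.17) without the latter, while all 10 were positive with reads thinned to the shallowest library.

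The second comparison sets the IgMneg against the IgMhi cells of CKO mice. Of the 10 genes, 2 were lower, *Mki67* and *Cenpf*, and none higher, where 7.53% of all genes were called and 5.75% were called lower. All 10 log2 differences were negative, with a median of -0.65 against 0.0095 over all genes, although *Cdk1* turned to 0.07 under quantile normalization. In 4 genes, *Mki67*, *Tpx2*, *Cenpe* and *Cenpf*, every IgMneg library was under both CKO IgMhi libraries, as in 22.0% of all genes. This comparison and the first share the 2 CKO IgMhi libraries, so their opposite signs are not independent of each other. The count of 2 fell to 0 without CKO IgMhi library 3 (40 genes called in all; *Mki67* at -1.19, adjusted p = 0.124) and to 1, *Mki67*, without CKO IgMhi library 2 or IgMneg library 2.

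In the third comparison, of CKO IgMneg with control IgMhi cells, none of the 10 passed, where 0.301% of all genes were called. The count was 0 also with edgeR and with DESeq2. Before adjustment, 1 of the 10 had a limma p under 0.05, *Mki67*, which was lower in IgMneg cells. By that looser measure 802 of all 10627 genes rose and 834 fell. The log2 differences were positive for 5 genes and negative for 5, with a median of -0.17 against 0.0065 over all genes. No gene of the 10 had groups that did not overlap, where 9.74% of all genes lay wholly lower in IgMneg cells. The widest differences were those of *Cenpf* (-0.73, 95% interval -1.59 to 0.14), *Mki67* (-0.63) and *Tpx2* (-0.59). Both genotype and sort differ in this comparison and cannot be told apart.

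**Figure D3:**
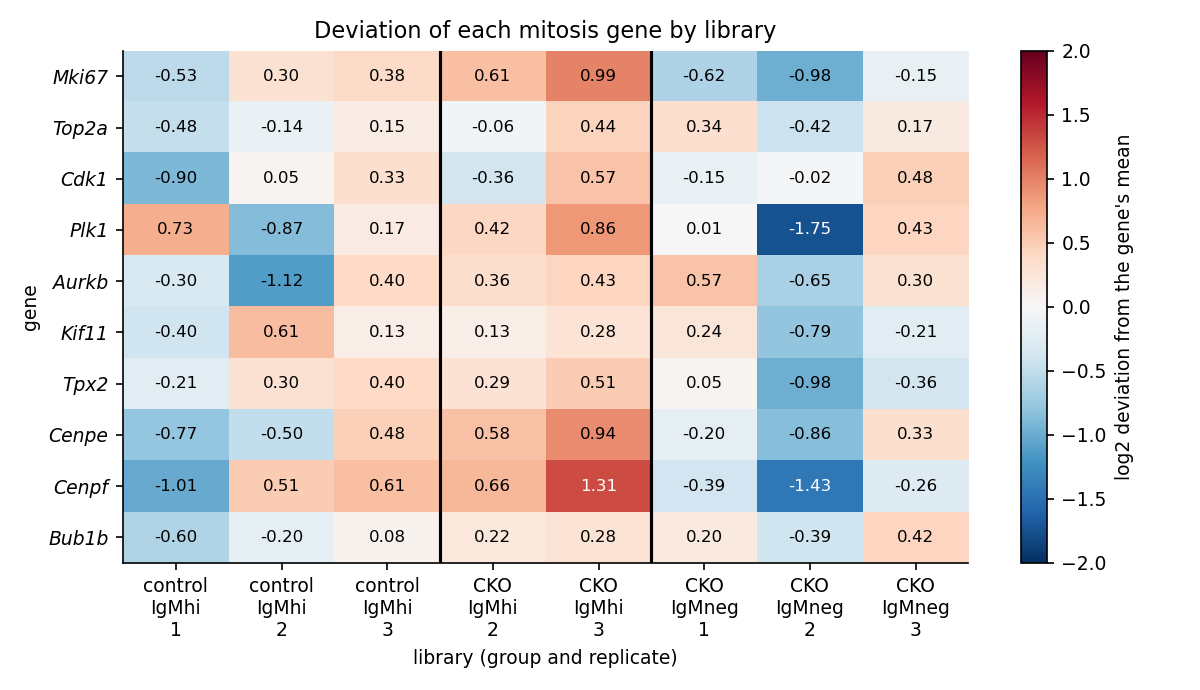
Log2 deviation of each gene from its own mean over the 8 libraries (colour, with the value in each cell); rows are the 10 genes, columns the libraries in their groups. CKO IgMhi library 3 is above the mean for all 10 genes and IgMneg library 2 below it for all 10.

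Libraries moved as a whole as well as groups. CKO IgMhi library 3 held the highest level of 7 of the 10 genes, with a median deviation of 0.54 on the log2 scale from each gene's mean, and IgMneg library 2 held the lowest level of 6, with a median deviation of -0.82. Control library 1 was also low (-0.51, below the mean for 9 of 10 genes), and control library 3, the deepest, was above the mean for all 10 (0.36). The median deviation over all genes lay between 0.0028 and 0.013 in every library. Within the IgMneg group the 3 libraries thus ran from -0.82 to 0.24, a spread larger than the median difference of -0.65 between the 2 CKO groups.

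The same replicate numbers in the 2 CKO sorts allow a comparison inside a mouse. In mouse 2, 9 of the 10 genes were lower in IgMneg than in IgMhi cells, with a median log2 difference of -1.14, and in mouse 3 also 9, with a median of -0.46. Of all genes tested, 49.6% and 49.5% were lower in the 2 mice. *Mki67* differed by -1.59 and -1.14 in mice 2 and 3, and *Cenpf* by -2.09 and -1.57. *Tpx2* differed by -1.27 and -0.88, and *Cenpe* by -1.44 and -0.61. These 4 genes were lower in IgMneg cells of both mice, each by more in mouse 2. The same held for *Plk1* (-2.17 and -0.43) and *Kif11* (-0.92 and -0.49). In all, 8 of the 10 genes were lower in both mice, where 35.3% of all genes tested were. *Top2a*, also lower in both, differed by -0.37 and -0.26, and *Aurkb* by -1.01 and -0.12. *Cdk1* was higher in mouse 2 (0.34) and *Bub1b* in mouse 3 (0.14). With the mouse as a fixed term in the 5 CKO libraries alone, a fit chosen after seeing the data, 5 genes passed instead of 2: *Mki67* and *Cenpf* again, with *Kif11* (-0.70, adjusted p = 0.00479), *Tpx2* (-1.07, adjusted p = 0.0167) and *Cenpe* (-1.025, adjusted p = 0.007). That fit has 2 pairs of libraries and calls 2465 of all genes.

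**Figure D4:**
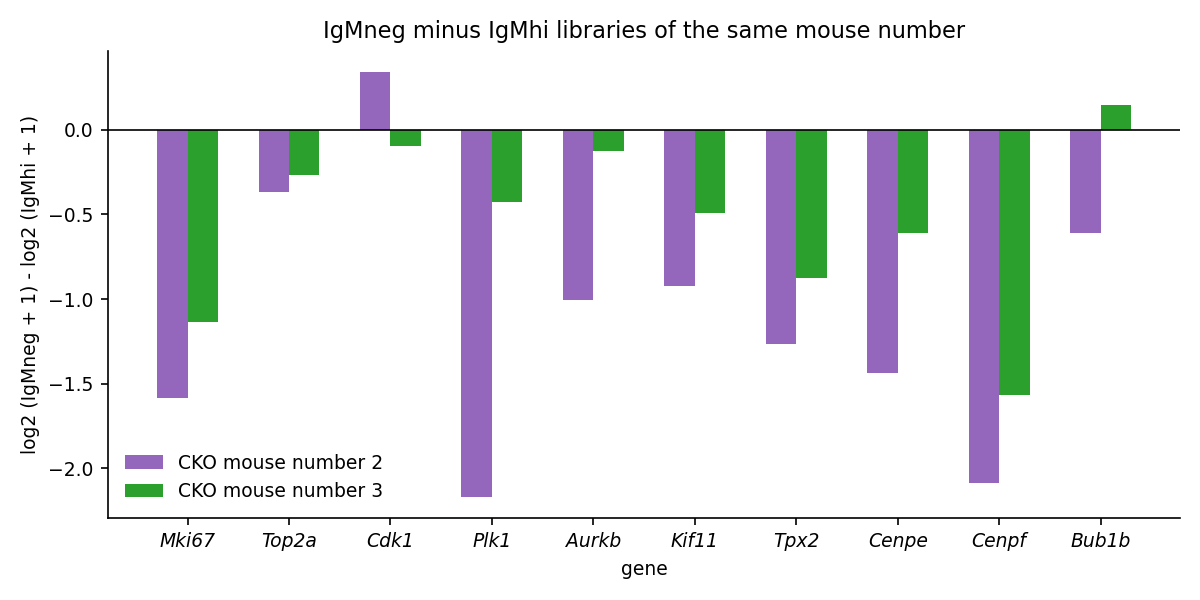
Difference on the log2(normalized count + 1) scale between the IgMneg and the IgMhi library of the same CKO mouse number (vertical axis) for each of the 10 genes; 1 bar for each of mice 2 and 3. All genes but *Cdk1* and *Bub1b*, which change sign, are below 0 in both mice.

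The levels of the 10 genes varied together in part. Of their 45 pairs, 44 had a positive Pearson correlation over the 8 libraries, with a median of 0.595. The closest pair was *Mki67* and *Cenpf* (0.971), followed by *Tpx2* and *Cenpf* (0.908), and the loosest was *Cdk1* and *Plk1* (-0.023), both of them genes with few reads. The libraries share groups, depth and mice, so these are descriptions. Among 8215 other genes averaging 50 or more normalized counts, those closest to the mean pattern of the 10 over the 8 libraries were *Ncapd2* (r = 0.941), which encodes a subunit of condensin I, *Gemin5* (0.937), *Snx18* (0.918), *Btbd2* (0.918) and *Tmcc3* (0.914). These genes were picked as the highest of 8215 correlations over 8 libraries, which is a description with no test. *Ncapd2* had a mean of 205 normalized counts in control IgMhi, 247 in CKO IgMhi and 201 in CKO IgMneg cells.

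Exon length moved with the fold changes. Over 9896 genes with a known length, the Spearman correlation of summed exon length with the log2 fold change of CKO IgMneg against CKO IgMhi cells was -0.384, and over the 10 genes it was -0.418. For CKO IgMhi against control cells it was 0.299 over all genes and 0.321 over the 10, and for CKO IgMneg against control cells -0.228 and -0.576. *Cenpf* (11368 bases) and *Mki67* (10075 bases), the 2 genes that passed, are the longest of the 10, against a median of 3743 bases over all genes. *Top2a*, with 9070 bases, is the third in length and differed by only -0.16. With the dependence on exon length and GC content taken out of each library, *Mki67* still passed (-1.08, adjusted p = 0.0246) and *Cenpf* did not (-1.38, adjusted p = 0.089).

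**Figure D5:**
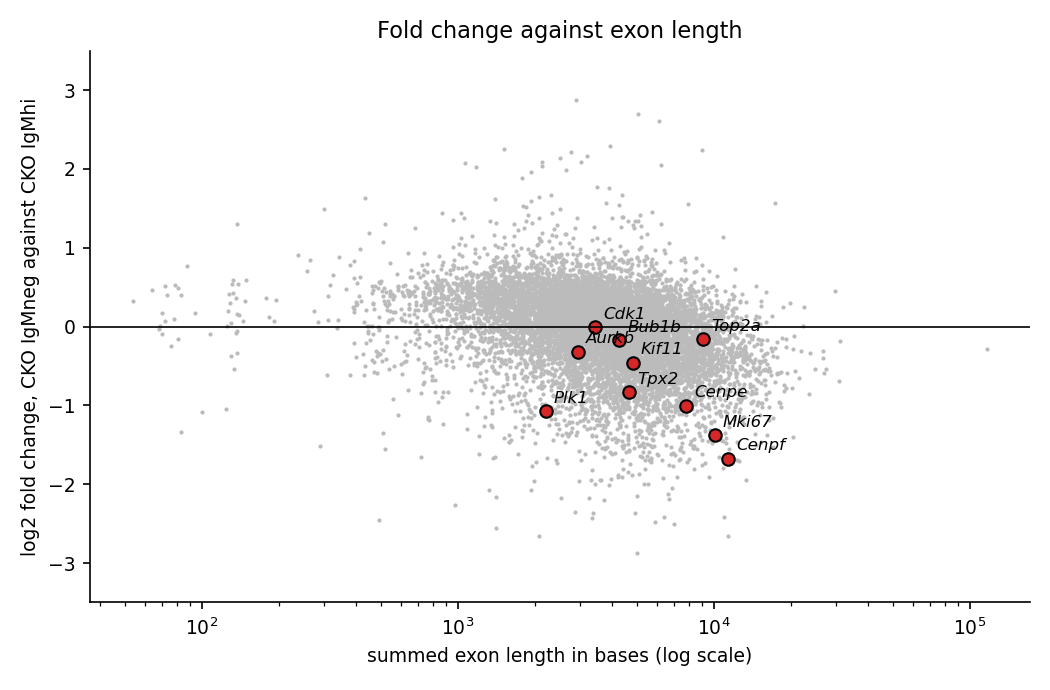
Log2 fold change of CKO IgMneg against CKO IgMhi cells (vertical axis) against summed exon length in bases (horizontal axis, log scale) for 9896 genes in grey, with the 10 mitosis genes in red; 5 genes lie outside the vertical range. *Mki67* and *Cenpf* are the longest of the 10 and the lowest, and *Top2a*, nearly as long, lies close to 0.

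Other genes of cell division, from 6 lists in all, were mostly not called. In CKO IgMhi against control cells no gene of any of the 6 lists passed. For CKO IgMneg against CKO IgMhi cells, 1470 of all 10627 genes were lower and 1110 higher at an unadjusted p under 0.05. The unadjusted counts given for lists in that comparison, here and below, stand beside these. In CKO IgMneg against CKO IgMhi cells none of 30 genes of spindle motors, spindle assembly and cytokinesis passed (5 lower at an unadjusted p under 0.05), with 25 of the 30 negative and a median of -0.37. The most abundant of them, *Numa1*, which gathers microtubules at the spindle poles, and *Ckap5*, a microtubule polymerase, differed by -0.29 (adjusted p = 0.356) and -0.15 (adjusted p = 0.634). None of 40 genes of the kinetochore and spindle checkpoint passed (before adjustment 2 were higher and 2 lower at p under 0.05), with a median of 0.07. There *Bub3*, a checkpoint protein, differed by 0.43 (adjusted p = 0.0882) and *Zwint*, a kinetochore adaptor, by 0.44 (adjusted p = 0.185). The 10 genes described here are not members of these lists.

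Among 19 genes of condensin, cohesin and sister separation, 1 was lower in the IgMneg cells, *Rad21*, the kleisin of cohesin (-0.74, adjusted p = 0.0149), and the list's median was -0.04. The shares of list genes called lower, here and in the lists that follow, stand beside 5.75% of all genes. Its most abundant genes, *Stag2* of cohesin (0.22, adjusted p = 0.482) and *Smc4* of condensin (0.54, adjusted p = 0.0604), did not pass. Of 29 genes of mitotic entry and exit, 2 were lower: *Anapc2*, the cullin subunit of the anaphase-promoting complex, at 111 against 237 normalized counts (-1.09, adjusted p = 0.0124), and *Fzr1*, its Cdh1 activator, at 83.4 against 165 (-0.98, adjusted p = 0.0151). The median of that list was -0.0076. Of 19 regulators of cell cycle transcription, 2 were lower: *Rb1*, the retinoblastoma protein gene (367 against 615 normalized counts, -0.74, adjusted p = 0.00785), and *E2f2* (232 against 385, -0.72, adjusted p = 0.0329), with a median of -0.43. None of 35 DNA replication genes passed (6 higher at an unadjusted p under 0.05), with a median of 0.12. *Pcna*, the sliding clamp, and *Mcm5*, a subunit of the replicative helicase, differed by 0.33 (adjusted p = 0.187) and 0.23 (adjusted p = 0.445). With the mouse as a random block the spindle list had 3 genes called lower and the kinetochore list 1 lower and 1 higher. That fit called 1633 of all 10627 genes, where the main fit called 800.

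In CKO IgMneg against control IgMhi cells none of these 6 lists had a called gene. There the replication list had 10 genes higher and 2 lower before adjustment, with 27 of 35 positive and a median of 0.15, where 802 of all 10627 genes were higher and 834 lower before adjustment and 50.8% were positive. This stood beside a median of -0.09 for the spindle list and 0.18 for the kinetochore list.

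Some markers of other cells differed between the sorts. The summed level of all 9 germinal center B cell markers was 118 to 211 normalized counts in CKO IgMhi and 255 to 350 in CKO IgMneg libraries, and 0 of 9 passed (3 higher at an unadjusted p under 0.05). The sum of the 7 plasma cell markers was 11916 to 15806 in CKO IgMhi and 8099 to 11839 in IgMneg libraries, with *Prdm1* lower (-0.79, adjusted p = 0.0251). Control IgMhi libraries 1, 2 and 3 had plasma cell sums of 29302, 25068 and 9805.5, so this sum also varied between the controls. Their germinal center sums were 144.5, 177 and 162. Of 11 T cell markers 4 are in the table, and their sum was 380 to 519 in CKO IgMhi and 886 to 1082 in IgMneg libraries, with *Cd3g* (2.08, adjusted p = 0.000397) and *Lck* (0.90, adjusted p = 0.00694) higher. Of 11 myeloid markers 7 are in the table, with a sum of 123 to 215 in CKO IgMhi and 80.2 to 593 in IgMneg libraries; of 10 erythroid markers 3 are, with 393 to 489 and 433 to 741. Both of these sums overlapped between the sorts, none of their genes passed (0 also at an unadjusted p under 0.05), and both were highest in IgMneg library 3. Without that library *Mki67* (-1.60, adjusted p = 0.00521) and *Cenpf* (-1.89, adjusted p = 0.0426) still passed. The T cell markers *Cd3g*, *Lck* and *Cd28* were higher in all 3 IgMneg libraries than in any IgMhi library. *Foxp3*, also among the 4, was not (log2 difference -0.47 against CKO IgMhi cells, adjusted p = 0.846). The part of any of these cells in the levels of the 10 genes was not tested.

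On the mm9 genome the 2 genes that passed are annotated as *Mki67* at chr7:142881471-142908062 and *Cenpf* at chr1:191464478-191511965, both on the minus strand. No other annotated gene overlaps either. *Top2a*, at chr11:98854257-98885503 on the minus strand, overlaps 2 annotated small nucleolar RNAs, and the other 7 genes overlap none.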

How the data were processed

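Splenic B-1a cells were sorted and their RNA was sequenced after removal of ribosomal RNA; the authors aligned reads to mm9 with TopHat 2.0.13, counted them with HTSeq 0.6.0 and normalized with DESeq2 in R 3.3.1. The deposited signal is reads divided by 1 size factor per library; whole reads were recovered from it, within 0.01 read for 100% of values. Strand of counting is not given in the sources used here, nor whether libraries are from separate mice, so p-values measure the spread between libraries.

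In R 4.3.3, limma 3.58.1 with a trend was fitted to log2(normalized count + 1) over 3 groups, for the 10627 genes that reached 10 normalized counts in 2 or more libraries; fold changes are on that scale, which understates the change of low genes. Tests were two-sided, with Benjamini-Hochberg adjustment over all genes tested and a threshold of 0.05. A gene was called where it passed. Count tests with edgeR 4.0.16 and DESeq2 1.42.0 on the recovered reads called 1109 and 1327 genes in CKO IgMneg against CKO IgMhi cells, and 27 and 120 in CKO IgMhi against control cells. Scripts were tested on simulated data. Exon length and GC content came from GENCODE vM1 (10025 genes matched by name, 92.97%). Poisson intervals cover counting error only.

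The 10 genes and the lists were chosen with earlier results of these data known. Named beyond the 10 are, for each list and comparison, the 4 called genes of smallest p or, with under 2 calls, the 2 most abundant genes beside any called, and the 5 genes most like the 10. Values of certain genes are left out of the text. Numbers 2 and 3 were used to pair the CKO libraries. Deviations from group means correlated at 0.257 and 0.197 between libraries of 1 number. The 2 CKO IgMhi libraries deviate from their mean by equal and opposite amounts. These 2 correlations are therefore not independent and do not show that a number is 1 mouse. Alternatives covered scaling, pseudocount, filter, tool, block, depth, length and single libraries.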

Additional observations from a re-analysis of the deposited data

How the results depend on the processing

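For the 10 genes, 697 log2 fold changes were recomputed under alternatives: 658 kept direction and side of the threshold, 30 turned, 6 lost and 3 gained the threshold. The count of genes called was 0 under every alternative in both comparisons with control cells. In CKO IgMneg against CKO IgMhi cells it was 2 with these exceptions. It was 1 with reads thinned to the shallowest library (*Cenpf* -1.41, adjusted p = 0.117) and 1 with the length and GC trend removed. It was 5 with the mouse as a fixed term in the CKO libraries alone, and 0 to 2 on leaving out single libraries. Over all alternatives the adjusted p of *Mki67* ran from 4.32e-14 to 0.124 and that of *Cenpf* from 9.1e-07 to 0.356. Without a replicate the remaining library of CKO IgMhi is assumed to vary like the other groups.

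With the replicate block the count was 2 with the mouse as a random block (correlation 0.255), 2 with the number as a fixed term, and 5 with the mouse as a fixed term in the CKO libraries alone, a fit with 1 residual degree of freedom per gene; in that fit *Cdk1* was at 0.12. The random and number blocks put *Cdk1* at 0.029 and 0.24 in that comparison. The random block raised the genes called in all from 800 to 1633. No other call of the 10 genes changed with a block.

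The fold changes that turned were not called in any setting, and the cause was not tested. In CKO IgMneg against CKO IgMhi cells, *Cdk1* was 0.068 under quantile normalization and *Top2a* 0.056 with the length trend removed; leaving out single libraries gave *Cdk1* -0.47 to 0.46, *Top2a* -0.41 to 0.087, *Aurkb* -0.57 to 0.045 and *Bub1b* -0.35 to 0.063. In CKO IgMhi against control cells, leaving out single libraries gave *Cdk1* -0.19 to 0.75 and *Kif11* -0.17 to 0.34, and leaving out control libraries 1 and 2 together gave *Cdk1* -0.22 and *Aurkb* -0.0060. In CKO IgMneg against control cells, *Cenpe* was -0.16 with edgeR, -0.11 with DESeq2 and -0.013 with thinned reads; leaving out single libraries gave *Cenpe* -0.27 to 0.39, *Cdk1* -0.089 to 0.53 and *Plk1* -0.89 to 0.21, and leaving out control libraries 1 and 2 gave *Top2a* -0.12, *Cdk1* -0.23, *Aurkb* -0.32 and *Cenpe* -0.73.

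Scaling by total reads moved the median of all genes by 0.147 in CKO IgMhi against control cells, and *Mki67* there to 0.89. *Plk1* has no value at a filter of 50 normalized counts, and in CKO IgMhi against control cells DESeq2 gave no adjusted p for *Cdk1*, *Plk1*, *Tpx2*, *Cenpe* and *Cenpf*, which could not be called there. Limits: with 2 CKO IgMhi libraries 1 library decides the calls, and in control library 2 *Plk1*, *Aurkb* and *Cenpe* rest on 2, 7 and 9 reads.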
